A study of Rattus norvegicus with 6 samples.

Results

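The carbonic anhydrase genes were followed by RNA sequencing in ventricular myocytes cultured from neonatal rats, the contracting muscle cells of the newborn heart. A row was taken as a member when its symbol was Car or Ca followed by a number and it held at least 60 counts summed over the 6 libraries, which gave 11 of the 16 genes with such a symbol and 11 of 21648 genes in all. The family was chosen by the lower levels of Car3 and Car9 in the treated cultures. For that reason the members' values and fold changes between treated and control cultures are given as a description without p-values.

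The treated cultures received 10 µM of 915, a compound that by the labels activates estrogen-related receptors (ERRs), for 72 h (3 libraries). The control cultures received the solvent DMSO for the same 72 h (3 libraries). All cells were wild type, of a strain the labels do not state, and came from pups at postnatal day 3, and all cultures had been pre-plated to remove fibroblasts and seeded with bromodeoxyuridine, which limits cell division, before a change to medium with insulin, transferrin and selenium. The labels call the libraries biological replicates without saying whether each came from its own cell isolation, so each p-value reflects library-to-library spread alone, part or all of which may be technical. A second compound named in the study design was not analysed here.

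Carbonic anhydrases are zinc enzymes that convert carbon dioxide and water into bicarbonate and a proton, and back again. Their isoforms differ mainly in where they sit: free in the cytosol, in the mitochondrial matrix, on the outer face of the cell membrane, or secreted. In heart muscle they are known for linking carbon dioxide removal to the transport of acid and bicarbonate across the membrane. A few relatives have kept the fold but lost the histidines that hold the zinc, and these do not catalyse the reaction.

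The 915 libraries held 30639244 to 38078137 counts in the gene table and the DMSO libraries 36799845 to 40010826. Levels are the deposited CPM values (counts scaled to a fixed library total), in which 3 counts, the upper limit behind a count of 0, stand for 0.0738 to 0.0917 CPM in the 915 libraries and 0.0698 to 0.0759 CPM in the DMSO libraries. CPM values are not corrected for gene length, so each gene is compared with itself across libraries and not with other genes. Fold changes and calls come from edgeR's quasi-likelihood test over 14253 genes, with a threshold of 0.05 on the Benjamini-Hochberg adjusted p. In that test 49.8% of all genes tested passed, 24.3% higher and 25.5% lower with 915. Of 9 myocyte markers 9 were higher with 915, their summed level was 23369 to 23719 CPM in 915 libraries and 15651 to 16711 CPM in DMSO libraries, and the cardiac troponin T gene Tnnt2 stood at 6137 ± 217 CPM in 915 libraries and 5192 ± 5.19 CPM in DMSO libraries (SD, n = 3 each).

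All 11 members passed the filter on low counts and entered the test. Of them 5 passed the threshold as lower with 915 (Car3, Car9, Car2, Car13 and Ca5b), 4 passed as higher (Car4, Car14, Car11 and Car8), and Car12 and Car6 did not pass. Their median log2 fold change was −0.42, beside −0.01 for all genes tested, and their median size of change without regard to sign was 0.46, beside 0.27. The CPM values of the 915 and DMSO libraries did not overlap for 10 of the 11 members, 6 lower and 4 higher. Of all genes tested 56.7% showed no overlap, 32.8% lower and 23.9% higher with 915. At least 2-fold changes past the threshold were seen in Car3, Car9 and Car2 (lower) and Car4 (higher), beside 6.9% of all genes tested lower and 1.77% higher. Since this contrast led to the choice of the family, nothing is read from these counts. By position in the cell, again as a description alone, the 3 cytosolic members and the mitochondrial one were lower. The 4 membrane-bound members were split, the secreted one did not pass, and the 2 members without catalytic activity were higher. Among all genes tested 25.5% were lower and 24.3% higher, and these groups are too small to be set against those shares.

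**Figure D1:**
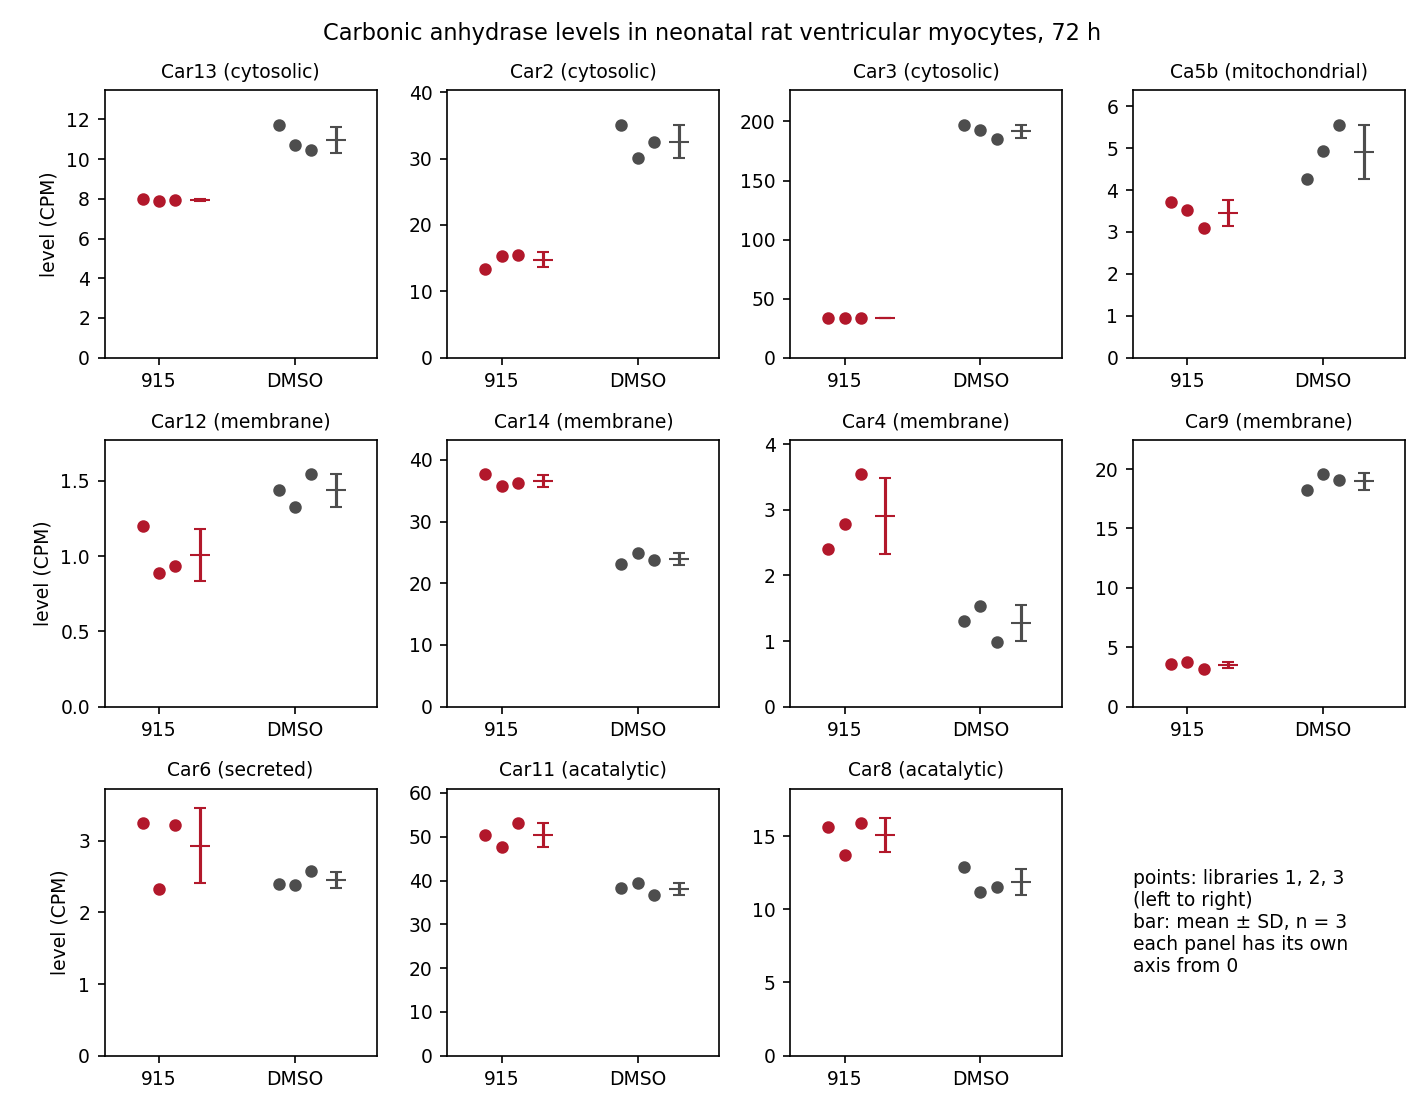
Level of each of the 11 members in CPM (vertical axis, from 0 in each panel) in 915 cultures (red) and DMSO cultures (grey). Points are libraries 1 to 3 and the bar beside them is the mean ± SD; the groups overlap for Car6 and for no other member.

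Car3 encodes a cytosolic isoform with weak activity towards carbon dioxide, known for its abundance in slow skeletal muscle, liver and fat. Its level was 33.7, 33.8 and 33.4 CPM in 915 libraries 1 to 3, against 197, 192 and 186 CPM in DMSO libraries 1 to 3. The 3 treated libraries lay within 0.5 CPM of each other and far below every control library. The log2 fold change was −2.46 ± 0.0504 (SE), a level 5.51-fold lower, and 66 of the 14253 genes tested had a lower fold change. The coefficient of variation of Car3 was 0.721% in the 915 libraries and 2.95% in the DMSO libraries. The treated values rest on 1289, 1106 and 1356 counts, for which counting error alone would give a wider spread than 0.721%. Their closeness is therefore not read as a trait of the treated cultures.

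The family's summed level was lower with 915, and most of the difference lay in Car3. The 11 members together reached 172 ± 4.31 CPM with 915 and 338 ± 7.49 CPM with DMSO (SD, n = 3 each). Car3 alone made up 19.6% ± 0.619 of these reads with 915 and 56.7% ± 0.438 with DMSO. Without Car3, the other 10 members summed to 133.6 to 142.6 CPM in 915 libraries and 144.7 to 148.5 CPM in DMSO libraries. Without Car3 and Car9 the sums of the 9 others overlapped, at 129.9 to 139.4 CPM with 915 and 125.7 to 130.3 CPM with DMSO. These sums lack the TMM scaling of the edgeR fit. Leaving that scaling out moved the median log2 fold change by −0.049, so gaps and overlaps this small may depend on it.

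Car2, the highly active cytosolic isoform found in red cells and many other tissues, had 13.4, 15.3 and 15.5 CPM in 915 libraries 1 to 3, against 35.0, 30.0 and 32.5 CPM in DMSO libraries 1 to 3. Every treated library lay at less than 16 CPM and every control library at 30 CPM or more. The log2 fold change was −1.09 ± 0.0808 (SE), 2.13-fold lower.

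Car13, a further cytosolic isoform, had 7.98, 7.89 and 7.92 CPM in 915 libraries 1 to 3 and 11.7, 10.7 and 10.5 CPM in DMSO libraries 1 to 3, without overlap. Its log2 fold change was −0.42 ± 0.0955 (SE), 1.34-fold lower. The cytosolic members thus ran from 1.34-fold to 5.51-fold lower.

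Ca5b encodes the broadly expressed isoform of the mitochondrial matrix, where bicarbonate is the substrate of carboxylating enzymes. It had 3.72, 3.52 and 3.10 CPM in 915 libraries 1 to 3, against 4.26, 4.94 and 5.54 CPM in DMSO libraries 1 to 3. The groups did not overlap, but the highest treated and the lowest control library lay close together. The log2 fold change was −0.46 ± 0.153 (SE), and it no longer passed without 915 library 3 (−0.39) or without DMSO library 3 (−0.37).

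The membrane-bound members act on the outside of the cell, and their genes moved in both directions. Car9, Car12 and Car14 encode proteins that span the membrane once, while the Car4 protein is held by a lipid anchor. CAR9 is a textbook target of hypoxia-inducible factor (HIF), whose binding core on DNA reads ACGTG or GCGTG, and ERRs bind the half-site TNAAGGTCA. The promoter windows of the 4 membrane-bound genes, from 250 bases before to 50 after the annotated start, are shown because this group holds both a large fall and the largest rise of the family. They are from RefSeq (rat build GRCr8), run 5′ to 3′ along the gene, and have matches to ACGTG or GCGTG on either strand in capitals:

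Car9 (GRCr8 chr5:62558774-62559073, plus strand): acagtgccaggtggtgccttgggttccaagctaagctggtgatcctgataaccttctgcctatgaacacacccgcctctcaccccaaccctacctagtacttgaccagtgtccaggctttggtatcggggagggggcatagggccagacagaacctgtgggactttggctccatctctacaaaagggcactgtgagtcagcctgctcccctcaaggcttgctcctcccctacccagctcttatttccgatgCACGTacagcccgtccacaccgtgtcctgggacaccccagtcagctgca
Car12 (GRCr8 chr8:76169565-76169864, plus strand): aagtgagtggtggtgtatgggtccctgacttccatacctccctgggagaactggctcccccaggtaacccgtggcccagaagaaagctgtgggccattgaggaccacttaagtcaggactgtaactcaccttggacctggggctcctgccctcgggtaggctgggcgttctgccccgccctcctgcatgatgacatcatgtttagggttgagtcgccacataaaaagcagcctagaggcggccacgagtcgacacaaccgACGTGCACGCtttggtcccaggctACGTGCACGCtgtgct
Car4 (GRCr8 chr10:70325108-70325407, plus strand): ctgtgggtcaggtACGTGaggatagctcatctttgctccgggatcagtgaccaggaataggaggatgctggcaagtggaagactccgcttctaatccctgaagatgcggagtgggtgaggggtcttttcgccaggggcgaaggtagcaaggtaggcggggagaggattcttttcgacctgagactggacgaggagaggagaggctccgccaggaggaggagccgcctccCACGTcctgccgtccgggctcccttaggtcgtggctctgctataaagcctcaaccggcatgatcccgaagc
Car14 (GRCr8 chr2:186138115-186138414, minus strand): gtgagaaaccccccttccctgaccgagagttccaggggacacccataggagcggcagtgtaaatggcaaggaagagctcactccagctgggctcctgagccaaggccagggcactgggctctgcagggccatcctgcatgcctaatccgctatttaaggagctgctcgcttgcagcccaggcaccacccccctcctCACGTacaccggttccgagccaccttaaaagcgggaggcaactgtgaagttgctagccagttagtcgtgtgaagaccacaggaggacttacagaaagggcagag

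Windows of 6 of the 11 members were at hand, those of Car11 and Ca5b besides the 4 shown. In the Car9 window ACGTG lies on the opposite strand at base 2 of the transcript. The Car12 window holds a run of ACGTG followed by CACGC, the reverse complement of GCGTG, at bases 11 and 35 of the transcript. Car4 has ACGTG 237 bases before its start and, on the opposite strand, 21 bases before it, and Car14 has it on the opposite strand 54 bases before its start. One or both HIF cores, which do not overlap each other in these windows, were found in 5 of the 6 windows, beside 41.6% of the 33469 promoter windows in the table. The half-site TNAAGGTCA, and its shorter core AAGGTCA, matched 0 of the 6 windows, beside 1.2% and 4.61% of all windows. Genes that were lower (Car9), higher (Car4 and Car14) and not past the threshold (Car12) all carried ACGTG. These are matches of letters and say nothing of binding.

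Car9, which encodes an isoform that acidifies the space around hypoxic cells, was the second large fall. It had 3.56, 3.76 and 3.20 CPM in 915 libraries 1 to 3, against 18.2, 19.6 and 19.1 CPM in DMSO libraries 1 to 3. All treated libraries were at less than 4 CPM and all control libraries at more than 18 CPM. The log2 fold change was −2.39 ± 0.102 (SE), 5.24-fold lower, and 75 of the 14253 genes tested had a lower one.

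Car12, a relative of Car9 with a similar build, was scarce, at 1.20, 0.887 and 0.935 CPM in 915 libraries 1 to 3 and 1.44, 1.32 and 1.54 CPM in DMSO libraries 1 to 3. The values did not overlap, yet its log2 fold change of −0.46 ± 0.251 (SE) did not pass the threshold. With 291 counts over all libraries it was the member with the fewest counts.

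Car14, a membrane isoform known from heart and skeletal muscle, was higher with 915, at 37.6, 35.8 and 36.2 CPM in 915 libraries 1 to 3 against 23.1, 24.9 and 23.8 CPM in DMSO libraries 1 to 3. The groups were well apart and each was tight. Its log2 fold change was 0.66 ± 0.0642 (SE), 1.58-fold higher.

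Car4, the lipid-anchored isoform known from capillary endothelium and muscle membranes, had 2.41, 2.78 and 3.54 CPM in 915 libraries 1 to 3 and 1.30, 1.54 and 0.987 CPM in DMSO libraries 1 to 3. It had the highest fold change of the family, a log2 value of 1.24 ± 0.234 (SE) or 2.35-fold, and it also varied most between libraries, by 19.9% of the mean with 915 and 21.8% with DMSO. Of 8 endothelial markers in the same libraries 4 were lower, 3 did not pass and 1 was higher. The higher one was Kdr, at 21.0 ± 0.682 CPM with 915 and 18.1 ± 0.418 CPM with DMSO. Their summed level was 56.9 to 57.3 CPM with 915 and 71.7 to 74.6 CPM with DMSO. The part of endothelial cells in the level of Car4 was not tested.

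Car6, known as the secreted isoform of saliva, had 3.24, 2.32 and 3.22 CPM in 915 libraries 1 to 3 and 2.40, 2.38 and 2.58 CPM in DMSO libraries 1 to 3. Treated library 2 lay below all controls and the other treated libraries above them, so the groups overlapped. The log2 fold change of 0.31 ± 0.185 (SE) did not pass.

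The relatives without catalytic activity were both modestly higher. Car11, whose protein is known mainly from the nervous system, had 50.5, 47.7 and 53.1 CPM in 915 libraries 1 to 3, against 38.2, 39.4 and 36.6 CPM in DMSO libraries 1 to 3, a log2 fold change of 0.45 ± 0.0621 (SE). Car8, whose product binds the inositol trisphosphate receptor, a calcium channel of internal stores, had 15.6, 13.7 and 15.9 CPM in 915 libraries 1 to 3, against 12.9, 11.2 and 11.5 CPM in DMSO libraries 1 to 3, a log2 fold change of 0.39 ± 0.0919 (SE). Neither gene's groups overlapped.

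**Figure D2:**
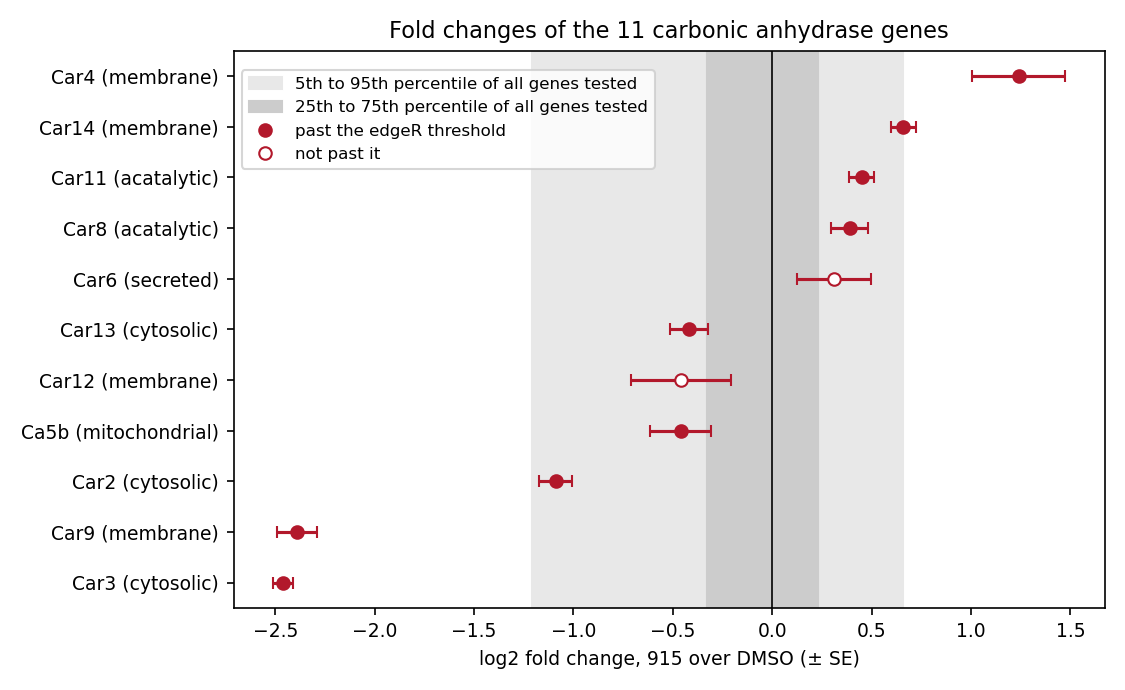
Log2 fold change of the 11 members, 915 over DMSO, with its SE, ordered from highest to lowest. Grey bands span the 25th to 75th (−0.33 to 0.23) and the 5th to 95th percentile (−1.21 to 0.66) of all genes tested; Car3 and Car9 lie left of the wide band and Car4 right of it.

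The other 5 genes with a carbonic anhydrase symbol stayed under the minimum of 60 counts. The nearest to it was Car7, a cytosolic isoform known from brain, with 35 counts over the 6 libraries. Car1, the abundant isoform of red cells, had 3, 0 and 2 counts in 915 libraries 1 to 3 and 7, 4 and 10 counts in DMSO libraries 1 to 3. Ca5a, the liver form of the mitochondrial isoform, had 10 counts in all, Car15 had 5 and Car10, the third relative without activity, had 4. None of these 5 entered the test.

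Several of the members sit side by side in the genome. In the gene order of GRCr8, a later assembly than the Rnor_6.0 build used for the counts, Car2, Car3, Car1 and Car13 follow each other on chromosome 2. The 3 of them that could be tested were all lower, by 1.09, 2.46 and 0.42 on the log2 scale for Car2, Car3 and Car13. Of all genes tested 25.5% were lower. These 3 are the cytosolic members given above, and the fall of Car3 led to the choice of the family, so their shared direction is a description. The next gene beyond Car13, Rbis (RGD1565641 in the count table), was higher (log2 fold change 0.34 ± 0.0754, SE), and the one after it, the cell cycle transcription factor gene E2f5, was lower (−0.45 ± 0.140).

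Neighbours of all members were then taken by position alone, 2 protein-coding genes on each side, a rule set after the members' values were known. Of 24 such genes outside the family that were tested, 10 were higher and 6 lower with 915, or 41.7% and 25%, beside 24.3% and 25.5% of all genes tested. None of the neighbours overlapped a member's span in GRCr8. Around Car9 on chromosome 5 all 4 neighbours were lower (picked out after their values were seen): Ccdc107 (log2 fold change −0.24 ± 0.0580, SE), Arhgef39 (−0.85 ± 0.0686), the muscle beta-tropomyosin gene Tpm2 (−1.22 ± 0.0468) and the talin gene Tln1 (−0.31 ± 0.0422). Tpm2, next to Car9, was counted at 252 ± 10.2 CPM with 915 and 609 ± 4.73 CPM with DMSO (SD, n = 3 each), and the strand setting of the counting is not given in the sources used here. Whether reads of Tpm2 were counted to Car9 was not tested. On 1 side of Car11, also picked out after the values were seen, the clock gene Dbp and the sphingosine kinase gene Sphk2 were higher. Their log2 fold changes were 0.49 ± 0.0611 and 0.47 ± 0.0606, close to the 0.45 of Car11 itself. The genes on its other side, Sec1 and Ntn5, were too scarce to be tested.

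**Figure D3:**
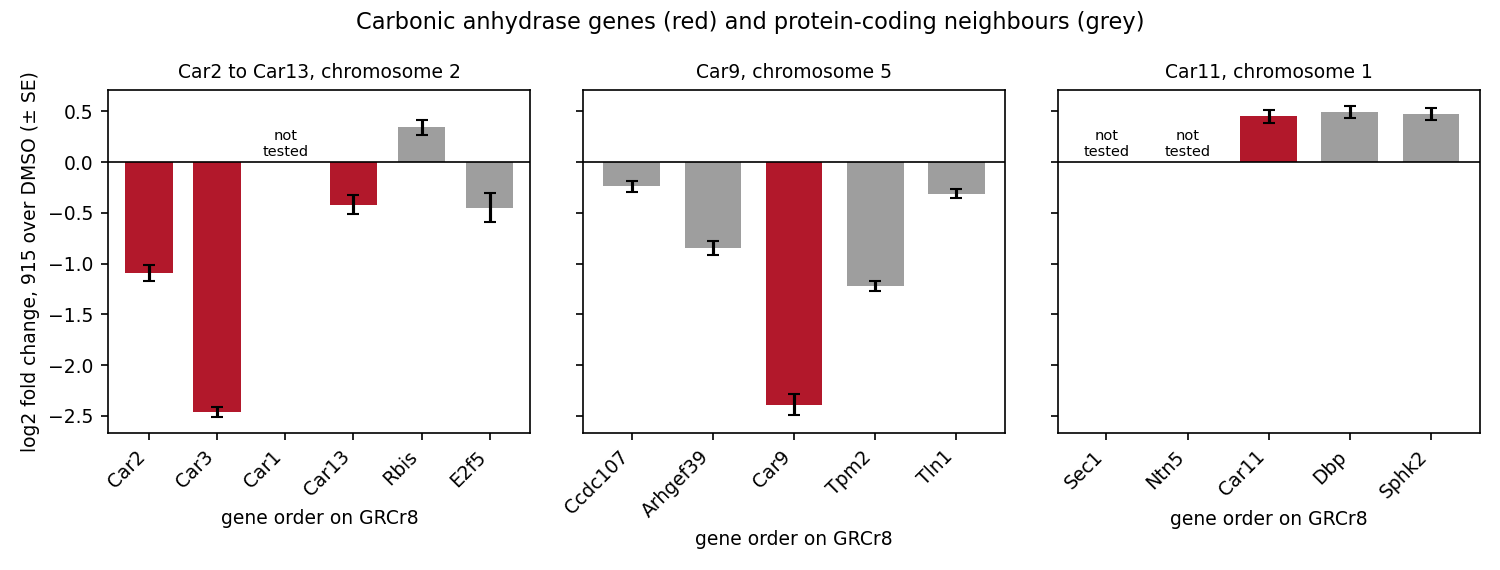
Log2 fold change, 915 over DMSO (bars, ± SE), of carbonic anhydrase genes (red) and the protein-coding genes beside them (grey) in the gene order of GRCr8. Car2, Car3 and Car13 point down, and beyond them Rbis points up and E2f5 down. All 4 neighbours of Car9 point down, and Dbp and Sphk2 point up with Car11. Car1, Sec1 and Ntn5 were not tested.

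Genes whose pattern over the 6 libraries came nearest to Car3 and Car9 were sought among 11592 genes with a mean of at least 1 CPM. This pool leaves out carbonic anhydrase genes and placeholder symbols, so Car3 and Car9 could not be named for each other. Nearness was the root mean square difference of log2(CPM + 0.1) values centred on each gene's mean. For Car3 the nearest genes of the pool were Clec3b, the tetranectin gene (difference 0.0400), Nnat (0.0647) and Idi1, an enzyme of isoprenoid synthesis (0.0745). For Car9 they were the Wnt pathway inhibitor gene Nkd1 (0.0657), Clec3b (0.0941) and Idi1 (0.0985). Clec3b had 18.7 ± 0.0949 CPM with 915 and 103 ± 5.83 CPM with DMSO (SD, n = 3 each), a log2 fold change of −2.42. As the genes were picked for this likeness, their falls are a description.

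Carbonic anhydrases work with proteins that carry bicarbonate and protons across membranes. Of 16 tested genes of the Slc4 and Slc26 families, here listed together as bicarbonate transporters, 5 were lower and 2 higher. Among all genes tested 25.5% were lower and 24.3% higher. These shares are the background for the list counts that follow as well, and no list count was tested against them. The median log2 fold change was −0.11, beside −0.01 for all genes tested. Slc4a4, which carries sodium and bicarbonate into the cell, fell to 15.4 ± 3.07 CPM with 915, against 22.1 ± 1.89 CPM with DMSO (log2 fold change −0.47, edgeR adjusted p = 0.00423). Slc26a6, a chloride-bicarbonate exchanger of heart, was higher, at 13.7 ± 0.217 CPM with 915 and 9.77 ± 1.59 CPM with DMSO (0.53, edgeR adjusted p = 0.00141), and Slc26a10 fell by 1.55 on the log2 scale at 0.710 ± 0.171 CPM with 915 and 2.17 ± 0.772 CPM with DMSO (edgeR adjusted p = 7.34e-04). The anion exchanger genes Slc4a2 and Slc4a3 did not pass, at 80.5 ± 0.934 and 64.6 ± 1.25 CPM with 915 and 90.3 ± 3.61 and 71.7 ± 3.75 CPM with DMSO. The lower genes numbered 3 without 915 library 3, DMSO library 1 or DMSO library 3, 3 with DESeq2, and 7 with library totals in place of TMM scaling.

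Among 13 tested sodium-proton exchangers and their regulators 4 were lower and 2 higher (median −0.12). Tesc, which encodes the calcium-binding protein tescalcin, rose to 157 ± 3.72 CPM with 915, against 79.8 ± 3.86 CPM with DMSO (log2 fold change 1.03, edgeR adjusted p = 1.53e-09). The scaffold gene Slc9a3r2 fell by 0.77 (edgeR adjusted p = 8.48e-07) and the exchanger gene Slc9a5 by 1.03 (edgeR adjusted p = 0.00126).

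Lactate carriers share protons with extracellular carbonic anhydrases. Of 5 tested monocarboxylate transporter and chaperone genes 3 were higher and 1 lower (median 0.31). The lower one was Slc16a3, the lactate exporter of glycolytic cells, at 19.9 ± 0.947 CPM with 915 and 36.6 ± 3.21 CPM with DMSO (log2 fold change −0.83, edgeR adjusted p = 8.51e-07). Slc16a1, the widely expressed carrier, and its chaperone gene Bsg were higher by 0.31 and 0.35 (edgeR adjusted p = 1.24e-04 and 1.94e-04). The lower genes numbered 2 without DMSO library 2.

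Of 9 tested genes for enzymes that use bicarbonate, with their biotin ligase, 5 were higher with 915 and 0 lower by edgeR (median 0.30), and 0 were lower at an unadjusted p under 0.05 or with DESeq2. Without DMSO library 2 the lower genes numbered 1. Acacb, which makes malonyl-CoA at the mitochondrial surface, had 223 ± 7.80 CPM with 915 and 136 ± 4.77 CPM with DMSO (log2 fold change 0.76, edgeR adjusted p = 1.79e-08). Mccc1 and Mccc2, the subunits of the mitochondrial leucine pathway carboxylase, were higher by 0.51 and 0.39 (edgeR adjusted p = 1.24e-05 and 4.15e-05). The mitochondrial anhydrase gene Ca5b was lower in the same libraries.

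**Figure D4:**
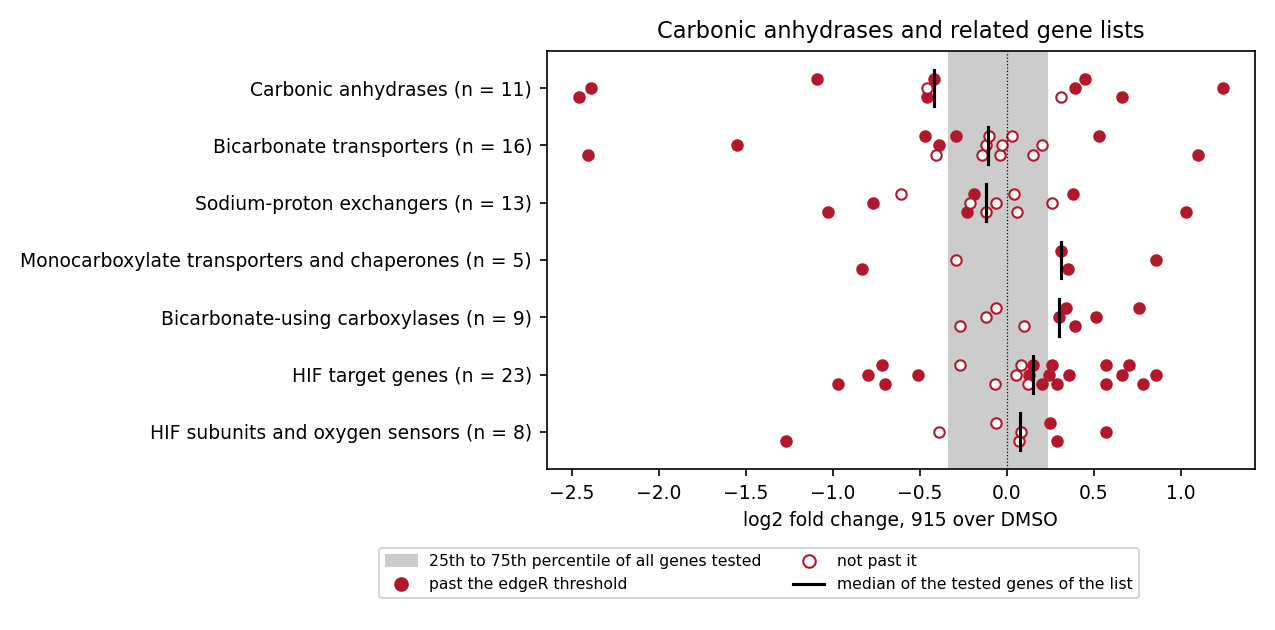
Log2 fold change, 915 over DMSO, of the tested genes of the carbonic anhydrase family and of each of 6 pathway lists (points, filled where the adjusted p passed) with the list median (black line) and the 25th to 75th percentile of all genes tested (grey band). The medians are −0.42 for carbonic anhydrases, 0.30 for bicarbonate-using carboxylases and 0.31 for monocarboxylate carriers.

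Car9 is read in many tissues as a marker of hypoxia, so other HIF target genes were set beside it. Of 23 tested 13 were higher and 5 lower, beside 24.3% and 25.5% of all genes tested. Their median log2 fold change was 0.15. That of Car9 was −2.39, a fall for which the family was chosen, so the gap between them is a description. Vegfa, the angiogenic factor, had 397 ± 12.7 CPM with 915 and 226 ± 14.5 CPM with DMSO (0.86, edgeR adjusted p = 8.26e-09). Ndrg1, a stress response gene, and P4ha1, a collagen hydroxylase subunit, went the other way, by −0.97 and −0.72 (edgeR adjusted p = 9.71e-09 and 2.87e-08). The lowest value among the 23 was −0.97, that of Ndrg1. Whether HIF activity had a part in the fall of Car9 was not tested.

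The HIF genes and oxygen sensors were mixed, with 3 of 8 higher and 1 lower. Hif1a had 101 ± 3.11 CPM with 915 and 85.5 ± 2.64 CPM with DMSO (log2 fold change 0.29, edgeR adjusted p = 2.48e-04), and the gene of its asparagine hydroxylase, Hif1an, was higher by 0.57 (edgeR adjusted p = 4.33e-05). Epas1, the gene of HIF-2 alpha, did not pass, at 90.8 ± 5.73 CPM with 915 and 89.7 ± 3.14 CPM with DMSO. The lower gene was Arnt2, a partner of HIF proteins known from neurons, at 18.3 ± 2.71 CPM with 915 and 45.5 ± 2.11 CPM with DMSO (−1.27, edgeR adjusted p = 4.29e-08).

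Markers of other cell types moved in the same libraries. In whole cultures, fewer cells of a type and less RNA per cell cannot be told apart. Among all genes tested 25.5% were lower and 24.3% higher. Of 11 fibroblast markers 8 were lower and 2 higher, with a summed level of 17316 to 18231 CPM with 915 and 32039 to 34013 CPM with DMSO. Lower too were 6 of 7 smooth muscle markers (792 to 843 CPM with 915 and 1885 to 2028 CPM with DMSO), 4 of 10 macrophage markers (119 to 144 CPM with 915 and 223 to 241 CPM with DMSO) and 6 of 8 Schwann cell and glial markers (247 to 258 CPM with 915 and 277 to 287 CPM with DMSO). No matched gene of these lists was at 0 in all libraries. The smooth muscle entries Myh11 and Acta2 found no match in the count table, so their levels are not known. Their part in the falls of Car3, Car9, Car2, Car13 and Ca5b was not tested.

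Lists of the cells best known for Car3 and for the red cell isoforms were also counted. Of 7 adipocyte markers tested 3 were higher and 1 lower, with a summed level of 151 to 156 CPM with 915 and 101 to 121 CPM with DMSO. Of this sum Cidea, a lipid droplet gene that was higher, made up 105 ± 2.05 CPM with 915 and 55.3 ± 5.41 CPM with DMSO. The lower one was Plin1, at 0.874 ± 0.213 CPM with 915 and 2.79 ± 0.237 CPM with DMSO. Cidec and Retn, also higher, averaged 0.375 and 0.508 CPM with 915. With DMSO they averaged 0.0792 and 0.0652 CPM, near the level of 3 counts. The adipocyte hormone gene Adipoq was at 0.0629 CPM with 915 and 0.115 CPM with DMSO on average, near the level of 3 counts. Of 8 skeletal muscle markers 5 were lower and 2 higher, and the summed level was 599 to 608 CPM with 915 and 522 to 557 CPM with DMSO. Most of that sum was Acta1, at 312 ± 6.51 CPM with 915 and 313 ± 11.3 CPM with DMSO, and Ckm, at 284 ± 4.72 and 208 ± 9.33 CPM. Acta1 did not pass and Ckm was higher. The 5 lower markers were scarce, such as Tnnt3 at 1.74 ± 0.461 CPM with 915 and 3.36 ± 0.378 CPM with DMSO. Of 6 erythroid markers tested 2 were higher and 1 lower, at a summed 7.04 to 9.26 CPM with 915 and 4.86 to 6.81 CPM with DMSO.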

How the data were processed

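RNA was sequenced from 3 cultures given 915 and 3 given DMSO. The authors worked with the rat build Rnor_6.0, STAR 2.5.1a and Subread featureCounts 1.4.6-p5, per the submitters' processing notes. How strand and multi-mapping reads were treated is not given in the sources used here. The read counts deposited by the authors hold 22641 rows, and 993 rows that repeated an Ensembl identifier were dropped, leaving 21648 genes. The CPM deposited by the authors equal these counts divided by 1 total per library, and the count table holds 93.1% to 93.7% of it.

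Counts were filtered with filterByExpr, scaled by TMM and fitted on group alone with edgeR 4.0.16 in R 4.3.3. The test was two-sided. Each SE was taken as the absolute log2 fold change divided by the square root of F. The procedure was tested on simulated counts. In these far fewer genes were set to change than were called in the data, so the simulation does not cover changes this widespread. Intervals are not given, and the 3-count floor covers counting error only, as reads carry no molecular identifiers. No 2 libraries of a group were near-copies (chi-square over its degrees of freedom 5.46 to 11.6, where counting error alone gives about 1).

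Members and lists were chosen with earlier results of these data known. The 174 entries in 6 pathway and 9 cell type lists gave 159 matched genes, found by symbol or else through RefSeq names. The text names all members, the 3 genes of smallest p past the threshold in each pathway list, and some genes of at least 20 CPM that did not pass. It also names the 3 profiles outside the family nearest to Car3 and to Car9. Alternatives were DESeq2 1.42.0, DESeq2 size factors, library totals without TMM, no low-count filter, replicate blocks, each library left out, and CPM ratios with pseudocounts of 0.1 and 1.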

Additional observations from a re-analysis of the deposited data

How the results depend on the processing

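Across the edgeR and DESeq2 alternatives 4 members remained past the threshold as higher, and 5 as lower except without 915 library 3 or DMSO library 3, when Ca5b missed it and the count was 4. The genes called numbered 6681 with DESeq2 and 6071 to 7047 with 1 library left out. Bicarbonate transporter genes called lower numbered 3 with DESeq2, 7 with library totals without TMM and 3 to 5 with 1 library left out. Monocarboxylate carrier genes called lower numbered 2 with library totals without TMM, and 1 to 2 with 1 library left out. Bicarbonate-using carboxylase genes called lower numbered 1 with those totals and 0 to 1 with 1 library left out. Library totals gave 2905 genes higher and 4192 lower, against 3460 and 3636 with TMM, and moved the median fold change by −0.049 on the log2 scale. On deposited CPM means with a pseudocount of 1 the scarce Car4 had a log2 fold change of 0.78 and Car12 −0.28, and Car9 −2.15. With the replicate number as a block, 6193 genes were called and bicarbonate transporter genes called lower numbered 3. The libraries share only a number: deviations of same-numbered libraries correlated at −0.0338, −0.111 and −0.0896, and no library correlated best with its own number. The cause of these shifts was not tested. Members under about 4 CPM rest on few counts, which widens their SE.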
